A study of Arabidopsis thaliana with 12 samples.

Results

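The nuclear genes for photosystem subunits, light-harvesting proteins and the small subunit of Rubisco comprised 46 loci of the 27366 named in the deposited tables. They were chosen by gene family, with earlier results of these data known, and no measured value entered the rule: 6 LHCA genes, 14 LHCB genes, 12 PSA genes, 10 PSB genes with PSBS among them, and 4 RBCS genes. RNA came from whole Arabidopsis thaliana seedlings. The volatile groups were exposed to volatiles from Tolypocladium inflatum GT22, a fungus (labelled mVCs), for 3, 24 or 48 h, and a control group without that label stood beside each time. Each of these 6 groups had 2 libraries, 12 in all. No allele, accession, age, dose or stress treatment of the seedlings was given in the sources used here, nor whether the libraries came from separate cultures, so the deposited p-values may measure technical spread only.

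Plants carry out the light reactions of photosynthesis in the thylakoid membranes of the chloroplast. Light-harvesting proteins bind chlorophyll and pass its excitation energy to photosystem II, which oxidises water, and to photosystem I, which reduces ferredoxin. Rubisco then fixes carbon dioxide with a large subunit made in the plastid and a small subunit made from nuclear RBCS genes. The nucleus encodes all light-harvesting proteins and many photosystem subunits, and in green seedlings their transcripts are among the most abundant of the cell.

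The tables gave 1 FPKM value (fragments per kilobase of transcript, scaled to all mapped fragments) per gene and group, so no spread over libraries could be computed. All 46 genes had a row that the authors tested at each time. In 4, 5 and 5 of these rows at 3, 24 and 48 h the gene shared its row with a neighbouring locus: PSAD2, PSBW and LHCB4.1 at all 3 times, PSBX at 3 h, and PSBP1 and LHCB4.2 at 24 and 48 h. Some rows that name only 1 locus also reached well past their gene, such as those of LHCA4, LHCB3, LHCB6, PSAE2 and PSBR. The genes were very abundant. Of the 138 pairs of group values, 123 were at least 1000 FPKM in both groups, and 6 genes fell under 1000 FPKM in any group (LHCA5, LHCA6, LHCB2.2, LHCB2.3, LHCB4.3 and PSAD2). Among the 100 most abundant rows of each group, 40 at 3 h, 40 at 24 h and 41 at 48 h held one of these genes under the volatiles, against 41 at each time in controls. Together they made up 17.4%, 16.4% and 16.9% of all FPKM under the volatiles, and 17.3%, 16.4% and 17.7% in controls. Markers of root (9 genes) and of shoot epidermis and stomata (7 genes) were all above 0. Their summed FPKM was 193, 156 and 178.0 under the volatiles against 187, 181 and 178.0 in controls for root, and 2169.8, 2286 and 2389 against 2075, 2607 and 2521 for epidermis and stomata. The latter sums rest mostly on 1 value each. At 3 h it was that of LTP1, with 1924 FPKM under the volatiles and 1816 in controls. The highest value of that list was 2025 against 2313 at 24 h and 2134 against 2250 at 48 h. Of these markers, CASP1, an endodermal gene, had 62.0 FPKM under the volatiles and 85.6 in controls at 24 h, TMM, a stomatal gene, had 20.9 and 27.8 at 24 h, and CASP5 had 1.42 and 3.03 at 48 h, each with an unadjusted p-value under 0.05 and none called by q-value in the authors' deposited table. Of the 9 root markers, 3, 5 and 5 were lower under the volatiles at 3, 24 and 48 h (4, 3 and 5 as shares of each group's summed FPKM). Of the 7 epidermis and stomata markers, 1, 3 and 6 were lower (2, 3 and 6 as shares). The part of these markers in the results that follow was not tested.

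**Figure D1:**
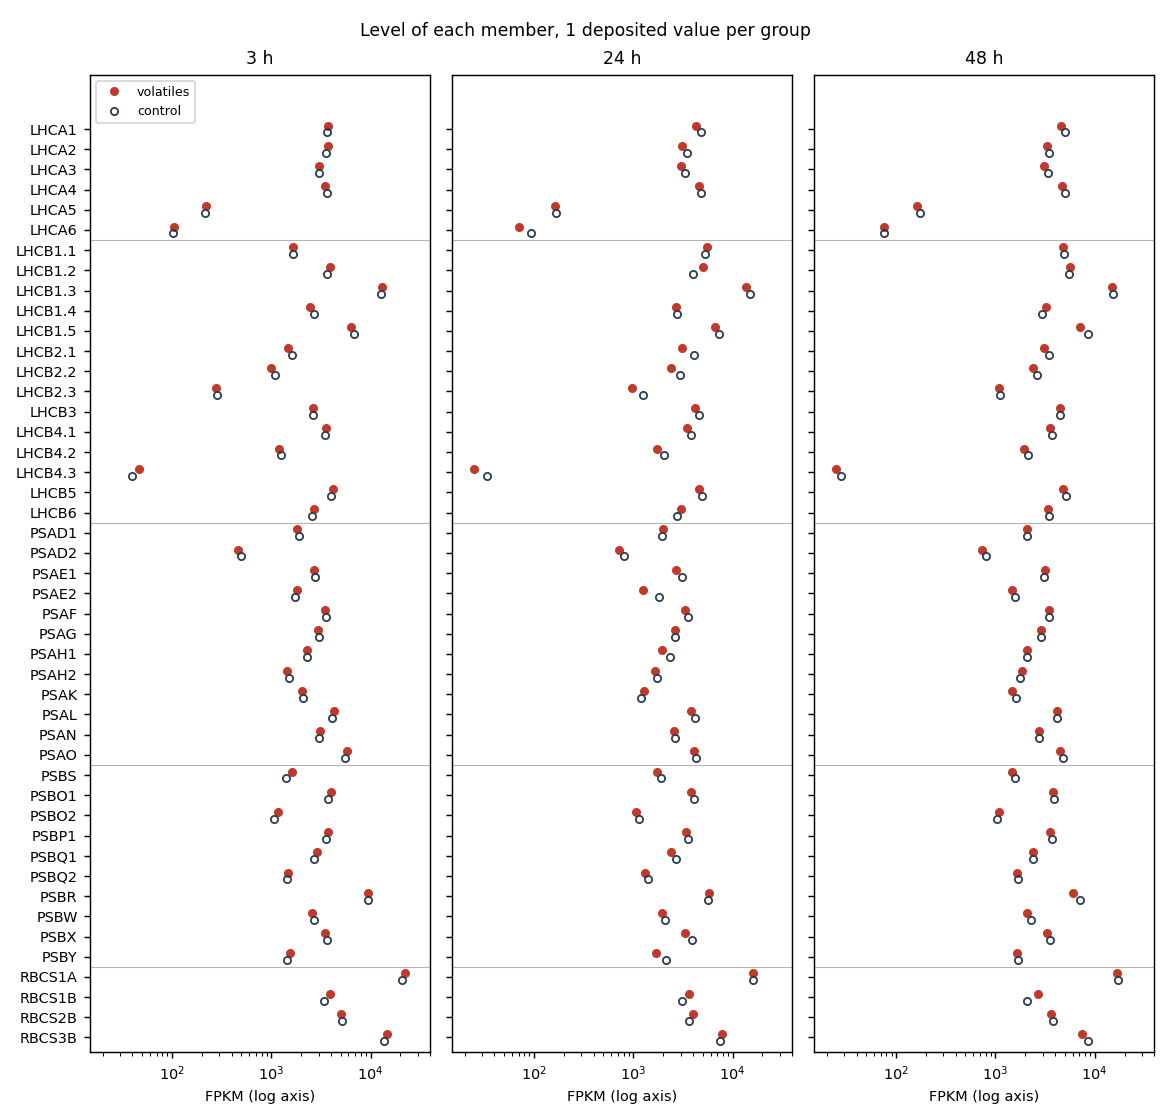
FPKM of the 46 genes (log axis) at 3, 24 and 48 h, with 1 deposited value per group: filled red points are volatile groups and open points controls, grouped from top to bottom as LHCA, LHCB, PSA, PSB and RBCS genes. The 2 points of a gene lie close together on nearly every line, and LHCA5, LHCA6 and LHCB4.3 are the 3 lowest at each time.

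No gene of the group was called higher or lower under the volatiles at 3, 24 or 48 h. In the authors' deposited table, all 46 q-values were 0.9998 at 3 h, 0.9996 at 24 h and 0.9993 at 48 h, where a q-value under 0.05 was called. Calls were few in the whole tables too, at 0.113% of 19480 tested rows at 3 h, 0.124% of 19326 at 24 h and 0.252% of 19415 at 48 h. By the unadjusted p-values of the authors' deposited table, 0, 3 and 0 of the 46 genes were under 0.05, against 2.24%, 2.96% and 2.76% of all tested rows. The 3 genes at 24 h, PSAE2, LHCB4.3 and LHCA6, were lower under the volatiles, as were 1.96% of all tested rows at that time. In whole seedlings, fewer cells of a type and less RNA per cell cannot be told apart.

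The fold changes were small. Every log2 fold change, taken as volatile over control with no pseudocount, lay between -0.15 and 0.25 at 3 h, between -0.54 and 0.36 at 24 h and between -0.26 and 0.36 at 48 h. Over all 138 values, 1 was beyond 0.5 in either direction, that of PSAE2 at 24 h. The error implied by the deposited statistic, if that statistic divides a fold change by its error, had a median of 0.25, 0.32 and 0.32 log2 units over the 46 genes. With it, the 95% interval lay within a doubling or halving for 45, 42 and 41 genes at 3, 24 and 48 h, and held 0 for all 46 at each time. These intervals may be too wide, since the deposited p-values of all 46 genes were smaller than this reading of the statistic gives. The interval was widest for LHCB1.4 at 48 h, from -1.84 to 2.11. At that time its row had the same bounds as the row of its neighbour LHCB1.5.

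**Figure D2:**
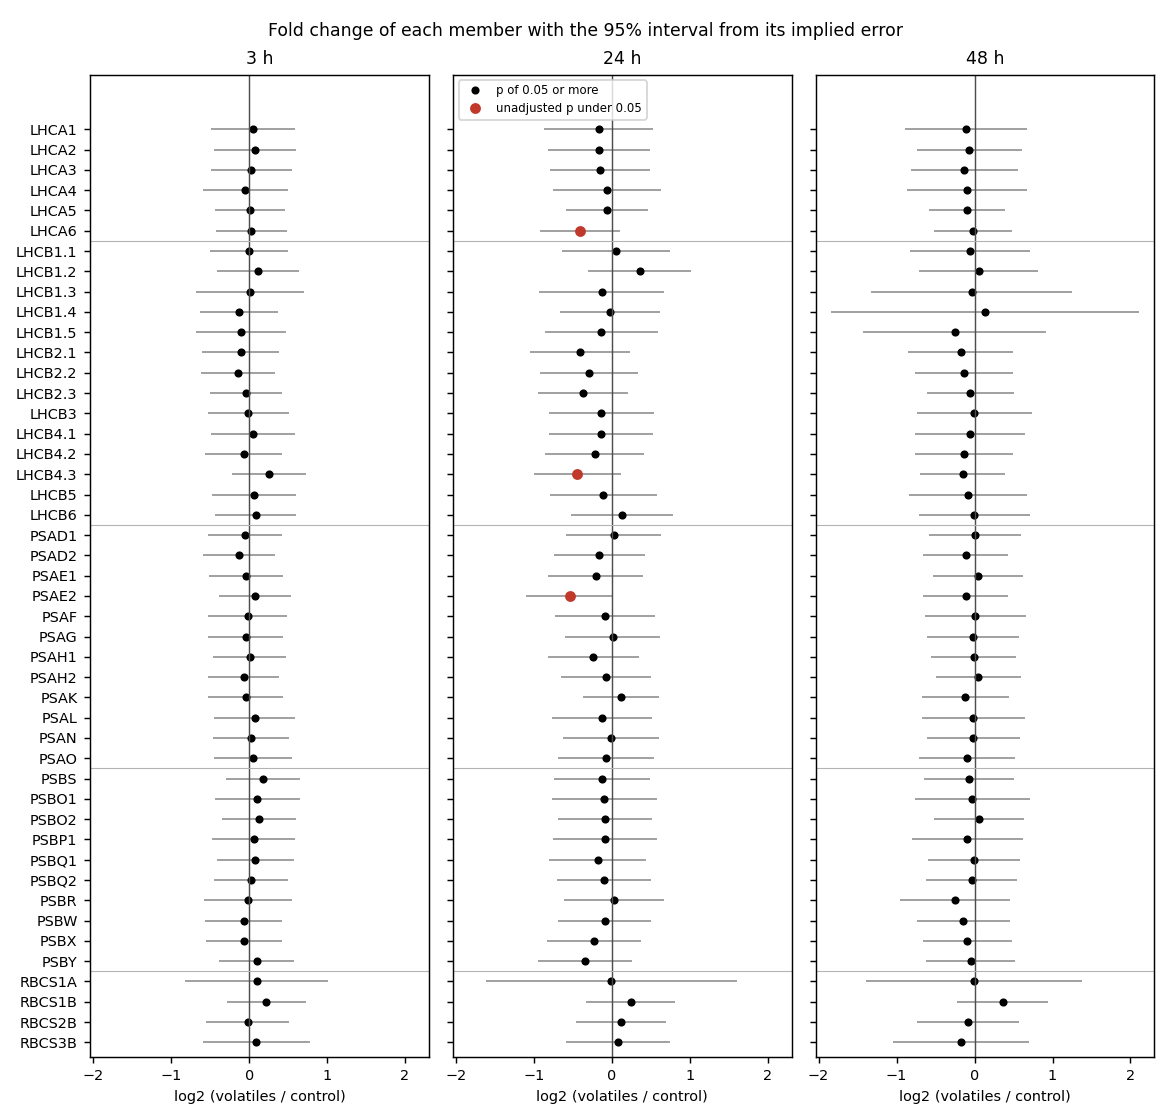
Log2 fold change of each gene, volatile over control, at 3, 24 and 48 h, with the 95% interval from the error that the deposited statistic implies; red points have an unadjusted p-value under 0.05. Red points are seen at 24 h for LHCA6, LHCB4.3 and PSAE2, and the intervals of all 46 genes cross 0 at each time.

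The median of the group lay near 0 at 3 h, where its sign depended on the scale, and below 0 as deposited at 24 and 48 h. As deposited, 20, 36 and 38 of the 46 genes were lower under the volatiles at 3, 24 and 48 h, with a median log2 fold change of 0.02, -0.11 and -0.06. Over all tested rows, 52.4%, 54.7% and 51.0% were lower, with medians of -0.009, -0.022 and -0.004. When FPKM was instead taken as a share of its group's sum, 27, 31 and 39 genes were lower (58.7%, 67.4% and 84.8%) and the medians became -0.01, -0.04 and -0.06. On that scale 60.1%, 40.5% and 52.4% of all tested rows were lower. With quantile normalization 24, 25 and 19 genes were lower, 12, 11 and 17 were higher and 10 were tied at each time. That scaling sets the log2 fold change of any row with the same rank in both groups to 0. Ties are thus built into it for genes such as RBCS1A, ranked 1 in both groups at each time, and it is no independent check. The summed FPKM that sets the rescaling was 971973, 963979 and 977625 under the volatiles, against 952155, 1011730 and 973939 in controls. Other abundant transcripts were set beside the group, namely the 226, 268 and 245 tested rows of at least 500 FPKM that held none of the 46 genes. At 3 h they had a median of 0.08 and 20.8% of them were lower under the volatiles, beside 43.5% of the 46 genes. At 24 h they had a median of -0.10 and 72.4% were lower under the volatiles, beside 78.3% of the 46 genes. At 48 h their median was 0.09 and 30.6% were lower, beside 82.6% of the 46 genes. As shares of the sum, 31.0%, 54.5% and 33.5% of these abundant rows were lower at 3, 24 and 48 h.

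**Figure D3:**
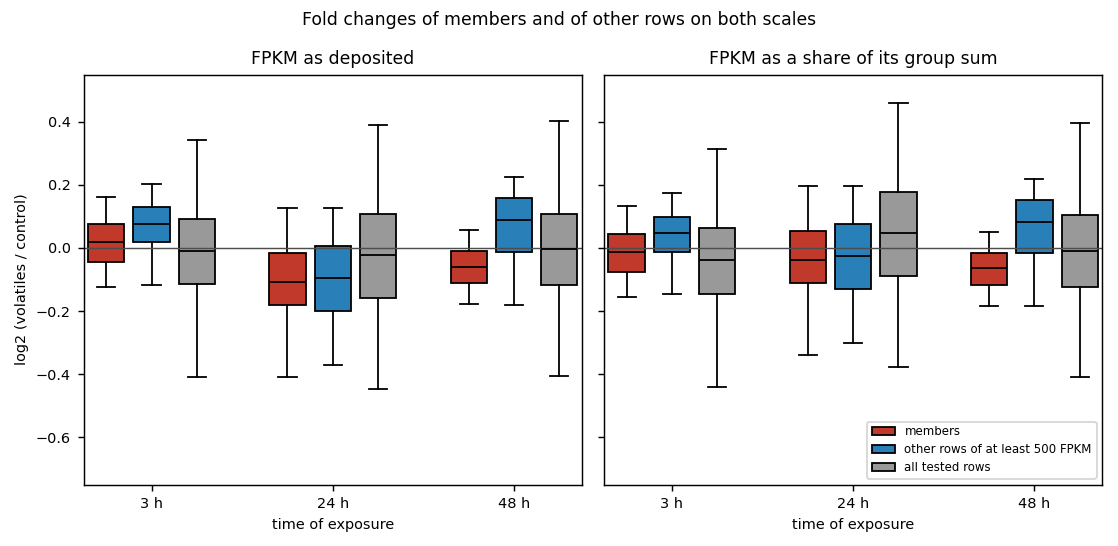
Log2 fold change, volatile over control, of the 46 genes (red), of other rows of at least 500 FPKM (blue) and of all tested rows (grey), for FPKM as deposited (left) and as a share of the group's sum (right); the line is the median, the box spans the 25th to the 75th percentile and the whiskers the 5th to the 95th. At 24 h the red and blue boxes lie together on both scales, and at 48 h the red box lies below the blue one, at medians of -0.06 and 0.09 as deposited.

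The 6 LHCA genes encode the antenna of photosystem I. LHCA1 to LHCA4 form the stable antenna belt, whereas LHCA5 and LHCA6 link photosystem I to the NDH complex of cyclic electron flow. LHCA1 to LHCA4 together had 14076 FPKM under the volatiles and 13814 in controls at 3 h, 14992 and 16432 at 24 h, and 15786 and 16913 at 48 h. At 3 h, 5 of the 6 genes were higher under the volatiles, and at 24 and 48 h all 6 were lower, with none called. As shares of the sum, 4, 4 and 6 of them were lower. LHCA4 (AT3G47470), the most abundant, had 3495.5, 4574 and 4730.5 FPKM under the volatiles at 3, 24 and 48 h and 3615, 4768 and 5039 in controls, a log2 fold change between -0.09 and -0.05 at each time. LHCA6 (AT1G19150, chr1:6612630-6613972 in TAIR10.1), the least abundant, had 104 FPKM under the volatiles against 102 in controls at 3 h, 70.8 against 94.1 at 24 h and 75.5 against 76.4 at 48 h. The groups thus lay apart at 24 h and close together at the other times. Its log2 fold change at 24 h was -0.41 (95% interval -0.92 to 0.11), with an unadjusted p = 0.0272 and q = 0.9996 in the authors' deposited table.

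LHCB1 and LHCB2 encode the trimeric main antenna of photosystem II, and LHCB1 alone has 5 similar copies. LHCB1.1, LHCB1.2 and LHCB1.3 sit side by side on chromosome 1, and LHCB1.4 and LHCB1.5 are neighbours on chromosome 2. Their coding sequences, from RefSeq's TAIR10.1 annotation, were 87.0% to 96.4% identical in pairs. Of all 50-base windows in a copy's coding sequence, 34.3% of LHCB1.1, 16.6% of LHCB1.2, 26.6% of LHCB1.3, 23.0% of LHCB1.4 and 23.0% of LHCB1.5 also occurred in another LHCB1 copy. A read that reaches no further than such a window cannot be given to 1 copy, whereas a longer read may be. The split of FPKM between these copies is uncertain for that reason, and the sum of the copies is less affected. Among the last 600 coding bases, 85 positions vary between the 5 copies. The 60-base stretch of these with the most differences is shown, with capitals at the 15 positions that vary.
LHCB1.1, chr1:10475626-10475685, minus strand: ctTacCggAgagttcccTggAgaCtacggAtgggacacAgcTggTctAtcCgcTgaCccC
LHCB1.2, chr1:10472980-10473039, minus strand: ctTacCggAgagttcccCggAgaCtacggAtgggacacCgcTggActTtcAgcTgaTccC
LHCB1.3, chr1:10478278-10478337, plus strand: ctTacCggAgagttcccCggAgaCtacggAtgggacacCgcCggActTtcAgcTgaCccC
LHCB1.4, chr2:14525022-14525081, plus strand: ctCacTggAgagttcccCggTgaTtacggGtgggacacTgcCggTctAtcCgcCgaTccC
LHCB1.5, chr2:14523253-14523312, minus strand: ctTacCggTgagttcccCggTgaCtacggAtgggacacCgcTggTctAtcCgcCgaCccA
LHCB1.3 (AT1G29930) was the most abundant copy, with 47.4%, 40.6% and 41.9% of the set's FPKM under the volatiles and 46.5%, 43.6% and 41.3% in controls. It had 13004, 13621 and 15069 FPKM under the volatiles at 3, 24 and 48 h, and 12869, 14908 and 15478 in controls. The summed FPKM of the 5 copies was 27412 against 27676 at 3 h, 33519 against 34189 at 24 h and 35942 against 37443 at 48 h, volatile against control, and so differed by at most 0.06 on the log2 scale. The copies did not move alike. LHCB1.2 (AT1G29910) was higher under the volatiles at all 3 times, with 3915 FPKM against 3611 in controls at 3 h, 5072 against 3958.5 at 24 h and 5693 against 5493.5 at 48 h. Its log2 fold change at 24 h, 0.36 (95% interval -0.30 to 1.02), was the highest of the 46 genes at that time, with p = 0.144 in the authors' deposited table. LHCB1.5 (AT2G34420) was lower at all 3 times, with 6361 FPKM against 6831 at 3 h, 6672 against 7323 at 24 h and 7153 against 8547 at 48 h. Its log2 fold change at 48 h, -0.26 (-1.42 to 0.91), was the lowest of the 46 genes at that time, with p = 0.543 in the authors' deposited table. LHCB1.4 (AT2G34430) had 2463 FPKM under the volatiles and 2695 in controls at 3 h, and 3259 and 2971 at 48 h. At 48 h, unlike at 3 and 24 h, the rows of LHCB1.4 and LHCB1.5 had the same bounds, chr2:14515984-14525763, which span both genes. Their implied errors were 1.01 and 0.60 at 48 h, beside 0.26 and 0.30 at 3 h, so their values at 48 h are less certain. None of the differences of the LHCB1 copies passed the test, and reads shared between the copies may enter each of them.

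The 3 LHCB2 genes encode the LHCII protein whose phosphorylation moves antenna between the photosystems. All 3 were lower under the volatiles at all 3 times, as deposited and as shares of the sum, and none was called. LHCB2.1 (AT2G05100) had 1490.1, 3062 and 3096 FPKM under the volatiles at 3, 24 and 48 h, and 1608.6, 4060.1 and 3507 in controls. LHCB2.2 (AT2G05070) had 983, 2399.8 and 2375 FPKM under the volatiles, and 1088, 2944 and 2603 in controls. LHCB2.3 (AT3G27690) had 279, 974 and 1077 FPKM under the volatiles, and 286, 1259 and 1117 in controls. The gap was widest at 24 h, where the log2 fold changes were -0.41, -0.30 and -0.37 for LHCB2.1, LHCB2.2 and LHCB2.3, and where the sum of the 3 was 6436 FPKM under the volatiles against 8264 in controls. Their p-values at 24 h in the authors' deposited table were 0.0814, 0.200 and 0.0813. As shares of the sum, the median of the 3 log2 fold changes at 24 h was -0.30. LHCB2.1 and LHCB2.2 are 91.6% identical in their aligned coding bases and shared 24.0% and 29.0% of their 50-base coding windows, whereas LHCB2.3 shared none with either.

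Because these 3 genes lay on the same side at every time and were among the 4 whose level differed more than 2-fold between times, their upstream sequences are shown. Being lower at all 3 times was not particular to them. It held for 10 of the 46 genes as deposited and for 14 as shares of the sum. The same count was not made over all rows, so whether these are many or few is not known. Each sequence shown is the 250 bases before the gene start in RefSeq's TAIR10.1 annotation, and none of these windows overlaps another annotated gene. Capitals mark matches, on either strand, to the G-box CACGTG, the I-box GATAAG and the letters CCAATC, of which no pair overlaps here.
LHCB2.1, chr2:1824481-1824730, minus strand: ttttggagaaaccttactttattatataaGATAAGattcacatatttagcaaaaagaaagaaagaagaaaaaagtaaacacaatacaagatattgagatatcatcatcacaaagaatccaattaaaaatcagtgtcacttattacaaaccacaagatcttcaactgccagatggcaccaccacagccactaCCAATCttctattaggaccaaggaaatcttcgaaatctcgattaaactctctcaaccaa
LHCB2.2, chr2:1800473-1800722, minus strand: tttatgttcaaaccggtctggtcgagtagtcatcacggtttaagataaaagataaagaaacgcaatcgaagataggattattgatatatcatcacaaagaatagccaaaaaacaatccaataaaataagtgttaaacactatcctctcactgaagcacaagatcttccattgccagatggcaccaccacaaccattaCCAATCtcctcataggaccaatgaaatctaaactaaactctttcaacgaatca
LHCB2.3, chr3:10255656-10255905, plus strand: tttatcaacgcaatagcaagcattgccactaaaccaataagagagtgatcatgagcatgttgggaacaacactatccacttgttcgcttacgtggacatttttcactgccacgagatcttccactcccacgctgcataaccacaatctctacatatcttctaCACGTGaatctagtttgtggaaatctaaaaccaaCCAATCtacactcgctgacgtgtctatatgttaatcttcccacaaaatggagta
CCAATC stood at nearly the same place in all 3, with its first base 59, 53 and 54 bases before the start of LHCB2.1, LHCB2.2 and LHCB2.3. These distances rest on the annotated starts, which the tables do not share. The 3 h rows begin at position 1824425 for LHCB2.1, 1800392 for LHCB2.2 and 10255850 for LHCB2.3, against annotated starts at 1824480, 1800472 and 10255906, and for LHCB2.3 that lies inside the window. CCAATC was found upstream of 11 of the 46 genes (23.9%), of which 7 were among the 14 LHCB genes, 3 among the 6 LHCA genes and 1 among the PSB genes. It was found upstream of 10.2% of all 27443 protein-coding genes, in windows of the same length. The G-box was found upstream of 9 of the 46 genes (19.6%), against 6.49% of all genes. The I-box was found upstream of 10 (21.7%), against 12.3% of all genes. The evening element AAAATATCT, which is read by clock factors, was found upstream of 1, LHCA5, or 2.17%, against 2.36% of all genes. LHCB1.1, the other gene whose level differed more than 2-fold between times, had no match to any of these in its window. A match is only these letters in this window.

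LHCB3 completes the trimers, and LHCB4, LHCB5 and LHCB6 encode the single antenna proteins CP29, CP26 and CP24 between the trimers and the core of photosystem II. LHCB3 had 2633, 4146 and 4467 FPKM under the volatiles and 2653, 4547 and 4479.7 in controls. LHCB5 had 4172, 4570.2 and 4849.6 FPKM under the volatiles and 4013, 4935 and 5137 in controls. LHCB6 (AT1G15820) had 2701, 3018 and 3428 FPKM under the volatiles and 2552, 2762 and 3432.5 in controls, and with a log2 fold change of 0.13 at 24 h it was the third highest of the 46 genes at that time. Among the LHCB4 copies, LHCB4.1 held 74.2%, 66.3% and 64.8% of the set's FPKM under the volatiles and 72.7%, 65.0% and 63.7% in controls. LHCB4.2 was lower under the volatiles at all 3 times, with 1203 FPKM against 1264 in controls at 3 h, 1745 against 2034 at 24 h and 1924 against 2112 at 48 h. The rows of LHCB4.1 at all 3 times and of LHCB4.2 at 24 and 48 h also cover neighbouring loci.

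LHCB4.3 (AT2G40100, chr2:16745628-16747424), also known as LHCB8, was the least abundant of the 46 genes and held under 1% of the set's FPKM in all 6 groups. It had 46.7 FPKM under the volatiles against 39.3 in controls at 3 h, 24.9 against 33.8 at 24 h and 24.9 against 27.7 at 48 h. The volatile group was thus the higher at 3 h and the lower at 24 and 48 h. At 24 h its log2 fold change was -0.44 (95% interval -0.996 to 0.114), with an unadjusted p = 0.0261 and q = 0.9996 in the authors' deposited table. It shared no 50-base coding window with LHCB4.1 or LHCB4.2.

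The 12 PSA genes encode nuclear subunits of photosystem I. PSAD and PSAE form the stromal dock for ferredoxin, PSAF helps plastocyanin bind on the other side, PSAG and PSAK lie at the antenna edges, PSAN faces the lumen, and PSAH, PSAL and PSAO lie where mobile LHCII docks. Their summed FPKM was 32226, 27962 and 30575 under the volatiles and 32138, 30138 and 31136 in controls. Under the volatiles, 7 of 12 were lower at 3 h, 9 at 24 h and 8 at 48 h, and as shares of the sum 9, 8 and 9 were. PSAO (AT1G08380), the most abundant, had 5778, 4047 and 4473 FPKM under the volatiles and 5588, 4262 and 4797 in controls.

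PSAE2 (AT2G20260, chr2:8736734-8737767) had the smallest p-value of any of the 46 genes. It had 1825 FPKM under the volatiles against 1733 in controls at 3 h, 1241 against 1807 at 24 h and 1474 against 1594 at 48 h. The volatile group thus stood slightly above its control at 3 h and below it at 24 and 48 h, with the wide gap at 24 h. The log2 fold change at 24 h was -0.54 (95% interval -1.10 to 0.02), with an unadjusted p = 0.00945 and q = 0.9996 in the authors' deposited table. Its partner PSAE1, 79.0% identical in coding sequence and with no shared 50-base window, had 2687, 2690.4 and 3155 FPKM under the volatiles and 2759.8, 3109.6 and 3063 in controls. The share of PSAE2 in the summed FPKM of the pair was 31.6% under the volatiles and 36.8% in controls at 24 h, beside 40.4% and 38.6% at 3 h and 31.8% and 34.2% at 48 h. The row of PSAE2 reached past the end of the gene, to position 8739696 at 3 h and 8739677 at 24 and 48 h. Its values may therefore hold fragments from outside the gene.

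The shares within the other PSA pairs are given as values, with no test. PSAD1 held 79.9%, 73.5% and 73.9% of the PSAD pair's FPKM under the volatiles and 79.0%, 71.0% and 72.3% in controls. PSAD2 (AT1G03130), the least abundant PSA gene, was lower under the volatiles at all 3 times, with 458 FPKM against 502 in controls at 3 h, 717 against 801 at 24 h and 742 against 804 at 48 h. All 3 rows of PSAD2 also cover AT1G03140, so part of these fragments may belong to that neighbour. PSAH1 held 61.5%, 54.3% and 52.9% of the PSAH pair's FPKM under the volatiles and 60.1%, 57.1% and 53.9% in controls.

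Among the PSB genes, PSBO, PSBP and PSBQ encode the extrinsic proteins that stabilise the oxygen-evolving cluster of photosystem II, and PSBR, PSBW, PSBX and PSBY encode small subunits. The summed FPKM of the 10 PSB genes was 31812, 26409.5 and 27031 under the volatiles and 31221.5, 28561 and 29046 in controls. Of the 10, 3 were lower under the volatiles at 3 h, 9 at 24 h and 9 at 48 h, and as shares of the sum 4, 9 and 9 were. PSBR (AT1G79040), the most abundant, had 9354, 5789 and 6045 FPKM under the volatiles and 9454, 5689.9 and 7186 in controls. Its log2 fold change of -0.25 (95% interval -0.96 to 0.46) at 48 h was the second lowest of the 46 genes at that time. PSBO1 held 77.3%, 77.9% and 77.6% of the PSBO pair's FPKM under the volatiles and 77.6%, 78.0% and 78.6% in controls. PSBO2 (AT3G50820) had 1167, 1077 and 1092 FPKM under the volatiles and 1071, 1141 and 1049 in controls. PSBQ1 held 66.0%, 64.6% and 59.2% of the PSBQ pair's FPKM under the volatiles and 65.1%, 65.8% and 58.6% in controls.

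PSBS (AT1G44575) senses the acidity of the lumen and sets off the dissipation of excess light as heat. It had 1601 FPKM under the volatiles against 1418 in controls at 3 h, 1728 against 1888 at 24 h and 1486 against 1562 at 48 h. The log2 fold change at 3 h was 0.17 (95% interval -0.30 to 0.65), the third highest of the 46 genes at that time, with p = 0.296 in the authors' deposited table. PSBS was thus above its control at 3 h and below it at 24 and 48 h, and its 95% interval held 0 at each time.

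The 4 RBCS genes encode the small subunit of Rubisco. RBCS1A lies on chromosome 1, and RBCS1B, RBCS2B and RBCS3B lie side by side on chromosome 5. The 3 genes of the cluster were 96.7% to 97.3% identical in coding sequence, and RBCS1A was 90.4% to 90.6% identical to them. Of 50-base coding windows, 51.3% of RBCS1B, 38.0% of RBCS2B and 40.6% of RBCS3B occurred in another copy, against 3.64% of RBCS1A. The split of reads within the cluster is therefore uncertain. Reads of RBCS1A are more often its own, yet its 95% interval at 24 h, from -1.62 to 1.60, was the widest of the 46 genes at that time. The 60-base stretch of the first coding exon with the most differences shows this, with capitals at the 16 positions that vary; most of these set RBCS1A apart from the other copies.
RBCS1A, chr1:25049171-25049230, minus strand: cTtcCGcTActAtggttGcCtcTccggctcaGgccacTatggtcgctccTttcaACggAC
RBCS1B, chr5:15385077-15385136, minus strand: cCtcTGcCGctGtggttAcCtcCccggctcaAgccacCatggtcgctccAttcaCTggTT
RBCS2B, chr5:15381900-15381959, minus strand: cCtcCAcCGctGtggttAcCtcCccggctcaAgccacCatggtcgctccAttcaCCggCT
RBCS3B, chr5:15378228-15378287, minus strand: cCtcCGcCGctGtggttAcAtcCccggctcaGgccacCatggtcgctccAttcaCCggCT
RBCS1A (AT1G67090) was the most abundant of the 46 genes, with 22219, 16007 and 16914.5 FPKM under the volatiles at 3, 24 and 48 h and 20738, 16091 and 17014 in controls. Its share of the summed RBCS level was 48.6%, 50.8% and 55.1% under the volatiles and 48.3%, 53.2% and 54.2% in controls. The sum of the 4 genes was 45760.1 FPKM under the volatiles against 42909 in controls at 3 h, 31483 against 30273 at 24 h and 30718.5 against 31379.7 at 48 h. Within the cluster, RBCS1B (AT5G38430, chr5:15383167-15385320) was higher under the volatiles at all 3 times, with 3923 FPKM against 3371 in controls at 3 h, 3681 against 3114 at 24 h and 2665 against 2075 at 48 h. Its log2 fold changes were 0.22, 0.24 and 0.36, with p = 0.229, 0.308 and 0.0943 in the authors' deposited table, and it did not pass at any time. At 48 h, RBCS3B stood the other way, with 7543 FPKM under the volatiles and 8484 in controls. The sum of the 3 clustered genes had a log2 fold change of 0.09, 0.13 and -0.06, so the gap at RBCS1B was not seen in the summed level of the cluster at 48 h.

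**Figure D4:**
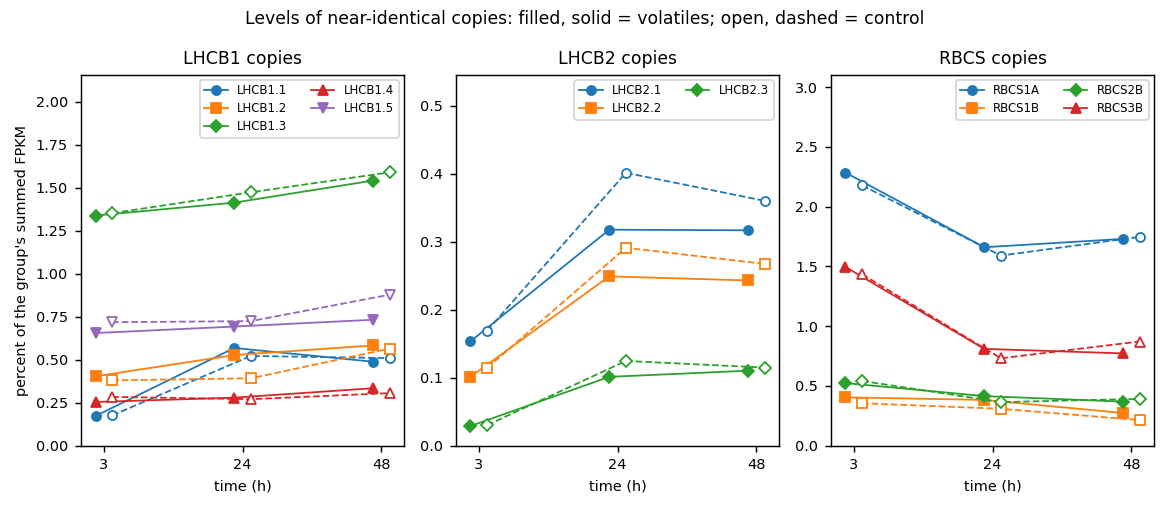
Level of each LHCB1, LHCB2 and RBCS copy at 3, 24 and 48 h as a percentage of the group's summed FPKM, with filled points and solid lines for the volatile groups and open points and dashed lines for controls. LHCB1.1 and the 3 LHCB2 copies stood higher at 24 and 48 h than at 3 h in both groups, and RBCS3B stood lower.

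Levels at different times come from separate tables, so they are given as shares of the summed FPKM and with no test. In both groups, 4 of the 46 genes were more than 2-fold higher at 24 and at 48 h than at 3 h, namely LHCB1.1 and the 3 LHCB2 genes. The same count was not made over all rows, so whether 4 of 46 is many or few is not known. LHCB2.3 was 3.52-fold higher at 24 h than at 3 h under the volatiles and 4.14-fold in controls, and 3.84-fold and 3.82-fold at 48 h. LHCB1.1 was 3.30-fold higher at 24 h under the volatiles and 2.97-fold in controls, and 2.84-fold and 2.90-fold at 48 h. Of its 50-base coding windows, 34.3% also occurred in another LHCB1 copy, so the size of this rise is uncertain. The sum of the 5 LHCB1 copies, less affected by that, rose less. As deposited it was 27412, 33519 and 35942 FPKM under the volatiles at 3, 24 and 48 h, and 27676, 34189 and 37443 in controls. No gene fell below 0.5-fold. RBCS3B came near it, at 0.54-fold of its 3 h level at 24 h under the volatiles and 0.51-fold in controls, and 0.52-fold and 0.61-fold at 48 h. The sources used here do not give the clock time of each harvest, and its part in these levels was not tested.

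The response to the volatiles was also compared between times, by a normal test of the difference between 2 log2 fold changes with the implied errors, adjusted by the Benjamini-Hochberg method over all rows of at least 1 FPKM. None of the 46 genes passed for 24 against 3 h, 48 against 3 h or 48 against 24 h, whether adjusted or at an unadjusted p under 0.05. Of all rows, 0 of 17752, 5 of 17819 (0.0281%) and 1 of 17849 (0.0056%) passed after adjustment, and 0.287%, 0.455% and 0.409% before it. The shares before adjustment lie far below the fraction of 0.05 that would pass if the errors were right and nothing differed. The test was thus strict, and a lack of passing genes says little. The difference nearest to the threshold was that of LHCB4.3 between 24 and 3 h, at -0.69 (95% interval -1.42 to 0.04). For PSAE2 between 24 and 3 h it was -0.62 (-1.35 to 0.11). The median difference over the 46 genes was -0.13 for 24 against 3 h, -0.07 for 48 against 3 h and 0.07 for 48 against 24 h, against -0.03, 0.00 and 0.03 over all rows.

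The rest of the photosynthesis machinery gave no calls either. In the lists of electron carriers and ATP synthase subunits (14 genes), photosystem assembly factors and kinases (13), light-stress LHC-like proteins (6), Calvin cycle enzymes (18), chlorophyll synthesis (18) and breakdown (11), and regulators (17), no tested gene had a q-value under 0.05 at any time in the authors' deposited table. The signs of several lists were one-sided as deposited. Of the 18 Calvin cycle genes, 17 were higher under the volatiles at 3 h, with a median log2 fold change of 0.14, and 17 were lower at 24 h, with a median of -0.22. As shares of the sum, 16 were higher at 3 h and 16 lower at 24 h. At 48 h, 12 were lower on both scales. Of 17 tested chlorophyll synthesis genes, 16 were higher at 3 h (13 as shares of the sum), and at 24 and 48 h 6 and 12 of 18 were higher (10 and 12 as shares of the sum, which turns the majority at 24 h). Among the electron carriers and ATP synthase subunits, 11 of 14 were higher at 3 h (9 as shares of the sum), and 12 and 9 of 14 were lower at 24 and 48 h (11 and 10 as shares of the sum). Of the 13 assembly factors and kinases, 9 were higher at 3 h, but 6 as shares of the sum, and 12 and 11 were lower at 24 and 48 h (8 and 11 as shares of the sum). Of the 6 LHC-like genes, 4 were higher at 3 h, 4 lower at 24 h and 6 lower at 48 h, as deposited and as shares of the sum. Of the chlorophyll breakdown genes, 5 of 9 tested were higher at 3 h, but 2 as shares of the sum, and 7 of 8 and 5 of 9 were lower at 24 and 48 h (6 and 5 as shares of the sum). The other rows of at least 500 FPKM, given above, had medians of 0.08 at 3 h and -0.10 at 24 h.

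In the authors' deposited table, single genes of these lists had an unadjusted p-value under 0.05, and none of their q-values was called. PSB27, which assists the repair of photosystem II, had 630 FPKM under the volatiles and 899.7 in controls at 24 h (log2 fold change -0.51, p = 0.0088 in the authors' deposited table). FD1, a leaf ferredoxin, had 751 and 1022 FPKM at that time (-0.45), and the plastocyanin gene PETE1 had 296 and 384 (-0.37). STN7, the kinase that phosphorylates LHCII, had 56.9 and 75.7 FPKM at 24 h (-0.41). CP12-1, which ties Calvin cycle enzymes into an inactive complex, had 1892 and 2563 FPKM at 24 h (-0.44), and ELIP2, an early light-induced protein, had 59.8 and 80.1 (-0.42). PORB, which makes chlorophyllide in the light, had 604 FPKM under the volatiles and 479 in controls at 3 h (0.33), 526 and 455 at 24 h and 833 and 699 at 48 h. CP12-3 had 21.5 and 28.9 FPKM at 3 h (-0.43), and at 24 and 48 h shared its row with AT1G76570.

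SIG5, a nuclear sigma factor that directs the plastid RNA polymerase to psbD, was lower under the volatiles at all 3 times. It had 5.35 FPKM under the volatiles against 7.43 in controls at 3 h, 8.89 against 11.7 at 24 h and 6.95 against 10.09 at 48 h. The log2 fold changes were -0.47, -0.39 and -0.54, with p = 0.0197, 0.0503 and 0.0085 and no called q-value in the authors' deposited table. Of the 17 regulators, 13, 8 and 12 were lower at 3, 24 and 48 h, with medians of -0.09, 0.00 and -0.09, and 13, 5 and 12 were lower as shares of the sum. GLK1 and GLK2, the GARP factors that activate photosynthesis genes, had 60.9 and 48.8 FPKM under the volatiles at 3 h against 65.0 and 57.0 in controls, and 74.3 and 128.0 at 24 h against 76.8 and 127.9. At 48 h GLK1 had 72.2 FPKM under the volatiles and 68.6 in controls, and GLK2 had 107 and 128. GLK1 and GLK2 were picked here after their values were seen, as the factors best known for these targets.

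The plastid-encoded partners could not be measured well. Of 26 plastid genes, 11, 8 and 9 were listed at 0 under the volatiles and 11, 8 and 10 in controls at 3, 24 and 48 h, and several genes shared rows, which left 12 distinct tested rows at each time. Of these 12 rows, 4, 9 and 9 were higher under the volatiles as deposited, with median log2 fold changes of -0.06, 0.12 and 0.49. By the authors' unadjusted p-values, 0, 1 and 3 rows were under 0.05, all of them higher, and none was called by q-value. The row of atpB had 37.7 FPKM under the volatiles and 21.6 in controls at 48 h (p = 0.0217 in the authors' deposited table), and 17.1 and 16.3 at 24 h. The row of atpA had 3.997 and 2.321 FPKM at 24 h (p = 0.0458 in the authors' deposited table). The row of psbK, which was not tested at 3 h, was listed at 0 under the volatiles and at 15.5 FPKM in controls at that time. It stood at 0 and 12.1 at 24 h, and at 48.6 and 0 at 48 h. The row of psbI, also not tested at 3 h, stood the other way then, at 278 FPKM under the volatiles and 0 in controls. The row of petD had 2.46 and 0.532 FPKM at 3 h (p = 0.0744 in the authors' deposited table). Its log2 fold change of 2.21 was the highest of the tested plastid rows at that time. The row that merges psbD and psbC had 4.66 and 2.67 FPKM at 48 h (p = 0.0252 in the authors' deposited table), 6.12 and 4.59 at 24 h, and 4.16 and 4.72 at 3 h. The large Rubisco subunit rbcL, chosen here as the partner of the RBCS genes, had 8.36 FPKM under the volatiles against 8.07 in controls at 3 h, 5.71 against 6.20 at 24 h and 5.88 against 6.57 at 48 h. The sources used here do not give how RNA was selected for the libraries, and a plastid FPKM is no measure of the plastid transcript beside a nuclear one.

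**Figure D5:**
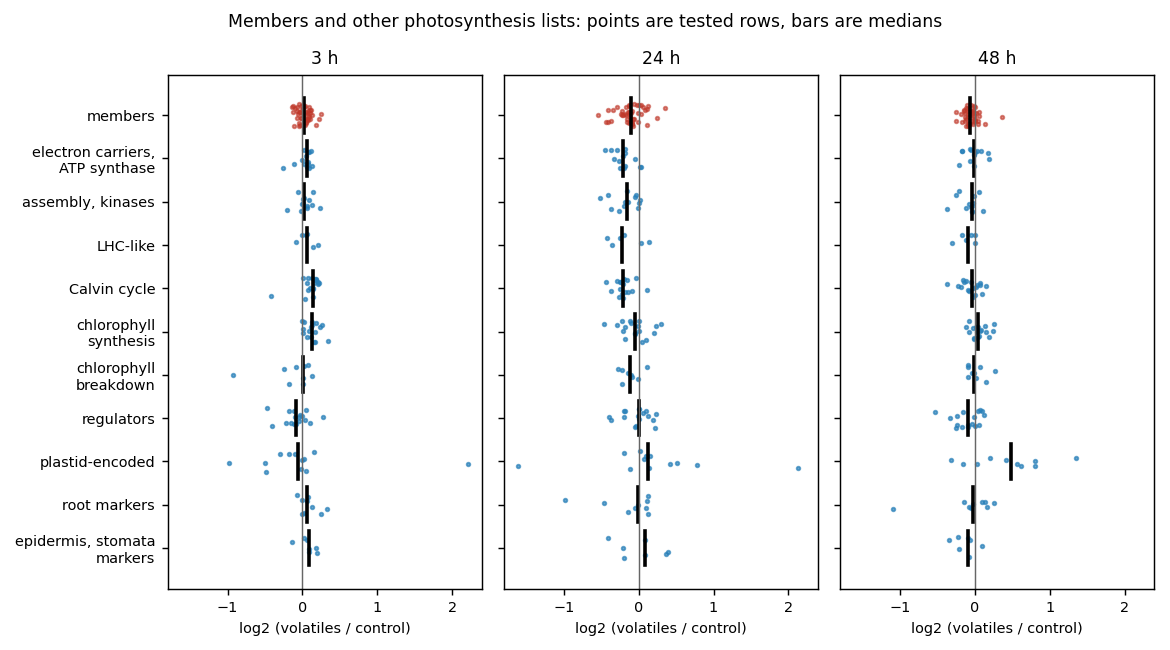
Log2 fold change, volatile over control, at 3, 24 and 48 h of the 46 genes (red, top) and of the tested rows of 10 other lists (blue), with a black bar at each median. Most points lie near 0; the Calvin cycle median is 0.14 at 3 h and -0.22 at 24 h, and the plastid-encoded rows span the widest range at each time.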

How the data were processed

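RNA from whole seedlings was sequenced for 12 libraries in 6 groups. Reads were trimmed with Trimmomatic 3.6 and aligned with TopHat to TAIR10, per the submitters' processing notes. Each time has its own deposited table, whose FPKM values were made by the authors from both libraries of a group together, per the file headers. The program behind the tables was not given in the sources used here, no label links a library to a table, and only a table's name gives its time. The statistic in the tables, a score, and the p-values and q-values are the authors' own, per the file headers. Read depth is unknown, so no counting interval is given. No column of per-sample values was left unused (0).

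Log2 fold changes were computed from the deposited FPKM, and the implied error is the fold change divided by the deposited statistic. That reading is not stated by any header, and for all 46 genes at each time the deposited p-value was smaller than it gives, so the intervals and the test between times may be too wide. Rows without a gene name (332, 343 and 342) stayed in the scaling and out of the gene lists, and a merged row was counted once per list. The design had planned a model over libraries only if values per library existed, and they do not.

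The 46 genes and the other lists were chosen with earlier results of these data known. Genes named with values were those with an unadjusted p-value under 0.05, the 3 highest and 3 lowest fold changes at each time, the most and least abundant of each family, the sets of copies, PSBS and, from the other lists, at most 4 with the smallest p-values, of which those with a p-value under 0.05 are given. Further genes were named to account for every family.

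Gene positions, upstream and coding sequences come from RefSeq's TAIR10.1, looked up by locus. All 138 table rows of the 46 genes overlapped their gene there. Upstream windows were 250 bases long and coding windows 50 bases, the longest coding isoform was used, and coding sequences were aligned with Biopython 1.88. Other steps used Python 3.11.15, pandas 2.3.3, numpy 2.4.6, scipy 1.17.1 and matplotlib 3.10.9. The test between times was tried on simulated fold changes drawn with the implied errors, which could not show whether those errors fit these data. Alternatives were scaling, pseudocounts, filters, the p-value used and the rows kept.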

Additional observations from a re-analysis of the deposited data

How the results depend on the processing

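No paired analysis was possible because the tables hold 1 value per gene and group, and for the same reason leaving out each library and the fit with a replicate block were not run. At 3 h the median log2 fold change of the 46 genes changed sign, from 0.0181 as deposited to -0.01162 as shares of each group's summed FPKM and -0.005844 with quantile normalization; its range over 10 settings was -0.01162 to 0.02673. At 24 h the range was -0.1294 to -0.01656 and at 48 h -0.06512 to 0, with the value nearest to 0 under quantile normalization at each. Quantile normalization sets genes of equal rank in both groups to 0, so that value is drawn to 0 by its own rule. The count of genes past the threshold at 24 h was 0 by q-value and 3 by the unadjusted p-value, and it stayed at 0 at 3 and 48 h under all 4 alternatives tried. No gene passed in any test between times under the 4 alternatives there, of which leaving out rows whose statistic and p-value disagree was chosen after seeing the data. The log2 fold changes of PSAE2, LHCB4.3 and LHCA6 at 24 h kept their sign under the 4 alternatives tried. Depth and the spread between libraries are unknown, which limits every value.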
